A study of Homo sapiens with 34 samples.

Results

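Differentiating human cells with a knockdown of NKX2-5 were compared with cells with a knockdown of ZEB2 at day 6 of culture toward cardiomyocytes. The comparison used 4 libraries of RNA sequencing counts, 2 from each line, chosen by their labels out of 34 libraries in 15 groups. Both lines were made in H1 cells, an established human embryonic stem cell (ESC) line, by lentiviral delivery of an shRNA and puromycin selection. For each gene the line with the strongest of several tested shRNAs was used, so each knockdown is 1 line and the effect of the shRNA cannot be told apart from other features of that line. All day 6 groups shared the same culture steps: the GSK3 inhibitor CHIR99021 to activate WNT signalling, then the WNT inhibitor IWP2, with insulin added only after the day studied here. WT cells at day 6, with a control vector that was either empty or aimed at GFP, gave 2 further libraries that show on which side of WT each line lay, and 2 libraries of ZNF503 shRNA cells entered the fit to share its estimate of spread. The same lines at day 0 (undifferentiated) and day 2 were used to see when differences arose.

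NKX2-5 is a homeobox transcription factor of heart progenitors and heart muscle that activates many genes of the contractile apparatus together with GATA and T-box factors. ZEB2 is a zinc finger and homeobox factor that binds E-boxes, represses epithelial genes such as CDH1 and interacts with SMAD proteins of the TGF-beta and BMP pathways. In this protocol mesoderm and some endoderm form first, under WNT and NODAL signalling, and heart progenitors follow once WNT is blocked.

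In NKX2-5 shRNA cells most transcripts of the contractile apparatus and of calcium handling were lower than in ZEB2 shRNA cells, in many cases by over 8-fold. Of 20 heart transcription factors 13 were lower, 8 of them by over 8-fold, and 4 were higher. Transcripts of secreted liver and yolk sac proteins were higher, and those of cell division were lower. Levels are given as CPM, which are counts brought to the same library total and corrected for library composition, and a log2 fold change is NKX2-5 shRNA over ZEB2 shRNA from edgeR's quasi-likelihood test, with its standard error (SE) and a p adjusted over all genes tested. In these bulk samples, fewer cells of a type and less RNA per cell cannot be told apart.

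The targeted genes were examined first. NKX2-5 (chr5:172659112-172662314 in GRCh37) was measured at 0.975 and 0.742 CPM in the NKX2-5 shRNA libraries, 36.4 and 34.7 CPM in the ZEB2 shRNA libraries and 83.2 and 49.3 CPM in the WT libraries. All values of the NKX2-5 shRNA libraries lay below the others (log2 fold change -5.41, SE 0.30, adjusted p = 3.84e-08). NKX2-5 mRNA was 1.30% ± 0.248 (SD, n = 2) of the WT mean in NKX2-5 shRNA cells and 53.6% ± 1.82 (SD, n = 2) in ZEB2 shRNA cells. ZEB2 (chr2:145121931-145278624) was at 20.2 and 20 CPM in NKX2-5 shRNA cells against 53.4 and 56.9 CPM in ZEB2 shRNA cells and 95.7 and 92 CPM in WT cells. Both lines lay below WT, and ZEB2 mRNA was lower in NKX2-5 shRNA cells, at 21.4% ± 0.110 of the WT mean, than in ZEB2 shRNA cells, at 58.7% ± 2.59 (log2 fold change -1.46, SE 0.13, adjusted p = 1.66e-06). ZEB2 mRNA already differed at day 2, at 4.98 and 4.32 CPM against 11.6 and 13.1 CPM (log2 fold change -1.39, adjusted p = 1.60e-04). ZNF503 (chr10:77157588-77161522), a zinc finger corepressor and the third gene targeted in the series, stood at 0.578 and 0.879 CPM against 12.9 and 11.8 CPM (log2 fold change -4.03, SE 0.27, adjusted p = 1.74e-07). NKX2-5 shRNA cells thus carried less mRNA of all 3 targeted genes than ZEB2 shRNA cells. Each of the 3 falls of NKX2-5 shRNA cells from WT passed the 5% false discovery rate (FDR).

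Of 16443 genes tested, 755 (4.59%) were called at 8-fold and 1% FDR. Of these 176 (1.07%) were higher and 579 (3.52%) lower in NKX2-5 shRNA cells. At 5% FDR with no fold threshold, 3498 genes (21.3%) were higher and 3797 (23.1%) lower, and these shares are the background for the gene lists below. The lines did not overlap in 76.7% of all genes tested. The median log2 fold change of all genes tested was -0.0047. The called genes lay mostly on the NKX2-5 side: the 176 had a median log2 fold change from WT of 3.23 for the NKX2-5 line, against -0.58 for the ZEB2 line. For the 579 the medians were -3.94 and 0.20. These values share WT and shRNA libraries with the calls and are descriptions only. Against WT itself, 774 genes (4.71%) were called in NKX2-5 shRNA cells, 212 of them (1.29%) higher, and 49.1% passed 5% FDR. In ZEB2 shRNA cells 76 (0.462%) were called. Spearman correlations across genes were 0.9956 between the NKX2-5 shRNA replicates and 0.9939 between the ZEB2 shRNA replicates. They were between 0.916 and 0.927 across the lines, and between 0.972 and 0.983 for ZEB2 shRNA with WT. With ZNF503 shRNA they were between 0.9742 and 0.9845 for NKX2-5 shRNA and between 0.916 and 0.9338 for ZEB2 shRNA. Library totals ran from 13807473 counts in ZEB2 shRNA replicate 2 to 61514547 in ZEB2 shRNA replicate 1.

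**Figure D1:**
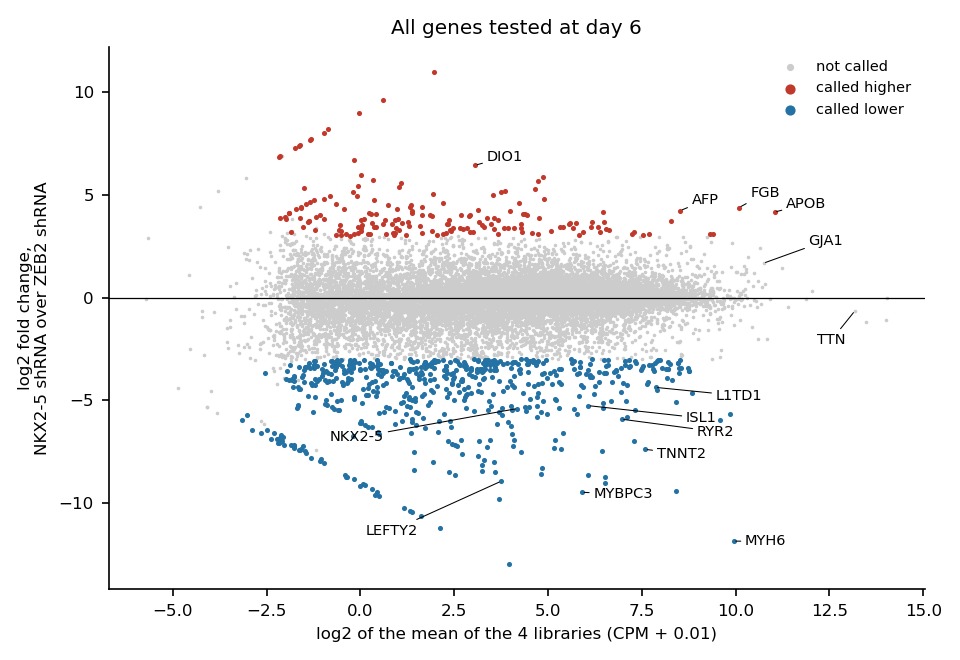
Each point is 1 of 16443 genes tested at day 6, with the log2 of its mean level over the 4 libraries (CPM + 0.01) on the x axis and the log2 fold change of NKX2-5 shRNA over ZEB2 shRNA on the y axis. Red points are the 176 genes called higher and blue points the 579 called lower at 8-fold and 1% FDR. The slanted rows at the edges are genes with no counts in 1 line, whose fitted fold change depends on the prior count. MYH6, at -11.87, lies at the bottom right and APOB, at 4.17, at the top right.

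The largest changes were read from called genes with at least 1 CPM in the higher line and no overlap between the lines. Among the 10 largest rises, DIO1 (type 1 iodothyronine deiodinase, an enzyme of liver and kidney that activates thyroid hormone) was at 18.1 and 15 CPM against 0.195 and 0.147 CPM (log2 fold change 6.45, SE 0.40, adjusted p = 9.76e-08). TDO2, the liver enzyme that opens the tryptophan ring, was at 59.5 and 56.1 CPM against 0.945 and 1.1 CPM (log2 fold change 5.87, SE 0.43, adjusted p = 4.13e-07). AMN, a part of the vitamin B12 receptor of gut, kidney and yolk sac, was at 51.4 and 53.2 CPM against 0.945 and 1.25 CPM (log2 fold change 5.66, SE 0.39, adjusted p = 2.18e-07). In each of these the lines were well apart. The antimicrobial lectin REG3G (1.88 and 1.62 CPM in NKX2-5 shRNA cells), the cytochrome CYP2C18 (1.84 and 2.11 CPM), the folate hydrolase FOLH1 (1.44 and 3.42 CPM) and the chemokine CXCL8 (0.722 and 1.43 CPM) had at most 3 counts in either ZEB2 shRNA library. They were at least 13-fold, 14.7-fold, 18.1-fold and 7.98-fold higher, taking 3 counts per library as the limit of detection.

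The other 3 of the 10 rises had no counts in ZEB2 shRNA cells at day 6 and were already higher in NKX2-5 shRNA cells before differentiation. IAH1, an ester hydrolase, was at 6.72 and 8.79 CPM against no counts in ZEB2 shRNA cells at day 6, at least 57.6-fold higher. It was at 3.89 and 3.81 CPM against 0 and 0.0143 CPM at day 0 (log2 fold change 8.86, adjusted p = 2.43e-05) and at 6.22 and 4.54 CPM against 0 and 0.0253 CPM at day 2. WT cells held 8.49 and 10.1 CPM at day 6, and the ZNF503 shRNA libraries 0.0997 and 0.0794 CPM. MIR4458HG, a noncoding host transcript, was at 2.06 and 1.82 CPM with no counts in ZEB2 shRNA cells and 1.84 and 2.61 CPM in WT cells. DDX43, an RNA helicase of germ cells, was at 2.93 and 3.09 CPM with no counts in ZEB2 shRNA cells and 0.214 and 0.0471 CPM in WT cells. Neither had counts in the ZNF503 shRNA libraries. At day 0 the log2 fold changes of these were 5.77 and 5.22, both past 5% FDR. AMN was also higher at day 0, at 0.661 and 0.789 CPM against 0.31 and 0.257 CPM (log2 fold change 1.35, adjusted p = 0.0259). At day 2 AMN was lower, at 0.164 and 0.22 CPM against 0.571 and 0.632 CPM (log2 fold change -1.70, adjusted p = 0.047). CXCL8 was lower at day 0 (log2 fold change -2.71, adjusted p = 0.0187).

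Of the 10 largest falls, 5 belong to striated muscle. MYH6 (alpha myosin heavy chain, chr14:23851191-23877482) was at 0.65 and 0.449 CPM against 2101 and 1851 CPM, with WT at 4569 and 3862 CPM (log2 fold change -11.87, SE 0.31, adjusted p = 4.99e-10). CKM (muscle creatine kinase) had no counts in NKX2-5 shRNA cells and 5.72 and 4.19 CPM in ZEB2 shRNA cells, at least 59.3-fold lower. CSRP3 (the muscle LIM protein) was at least 308-fold lower and PPP1R3A (a muscle subunit that targets protein phosphatase 1 to glycogen) at least 33.8-fold lower. FSD2, a protein of the muscle membrane system, was at least 31.2-fold lower, with 4.25 and 0.955 CPM in the ZEB2 shRNA libraries. The others had no counts in either NKX2-5 shRNA library: the retinol dehydrogenase DHRS9 with 24.3 and 38.2 CPM in ZEB2 shRNA cells, the synaptic vesicle protein SV2C with 11.3 and 6.1 CPM, the forkhead factor FOXQ1 with 5.6 and 6.69 CPM, the heat shock cochaperone DNAJC5G with 5.93 and 4.33 CPM and HPSE2 (heparanase 2) with 5.11 and 3.75 CPM. They were at least 374-fold, 104-fold, 73.6-fold, 61.5-fold and 53.1-fold lower. Of these DHRS9 and FOXQ1 were also higher in ZEB2 shRNA cells than in WT cells (log2 fold changes 2.95 and 3.13, adjusted p = 6.92e-05 and 5.83e-04). PPP1R3A, FSD2, CKM, HPSE2, MYH6 and CSRP3 were instead below WT in ZEB2 shRNA cells, all past 5% FDR. Their log2 fold changes from WT there were -3.02, -2.49, -2.22, -1.96, -1.09 and -0.70. SV2C and DNAJC5G did not differ from WT past 5% FDR in that line. FOXQ1 was already lower in NKX2-5 shRNA cells at day 0, at 0.049 and 0.103 CPM against 2.1 and 1.77 CPM (log2 fold change -4.57, adjusted p = 7.86e-05).

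Heart transcription factors were lower in most cases but not in all. Of 20 factors listed and tested, 13 were lower, 4 higher and 3 not past 5% FDR, and the median log2 fold change was -1.95. Of these 8 were called lower and 0 called higher. TBX5, a T-box factor of the first heart field, was at 0.217 and 0.156 CPM against 9.61 and 8.89 CPM and 14.3 and 18.4 CPM in WT (log2 fold change -5.67, SE 0.45, adjusted p = 8.00e-07). ISL1, the LIM homeobox factor of second heart field progenitors, was at 3.18 and 3.6 CPM against 136 and 126 CPM (log2 fold change -5.27, SE 0.16, adjusted p = 7.46e-10). MYOCD (myocardin, the coactivator of SRF) was at 4.91 and 4.9 CPM against 289 and 257 CPM (log2 fold change -5.80, SE 0.21, adjusted p = 1.47e-09). SMYD1, a muscle histone methyltransferase, was at 0.289 and 0.0586 CPM against 59.5 and 53 CPM (log2 fold change -8.61, SE 0.34, adjusted p = 3.33e-09). In these 4 the ZEB2 shRNA libraries were closer to WT than the NKX2-5 shRNA libraries were. ZEB2 shRNA cells were still below WT in SMYD1 (log2 fold change -2.37, adjusted p = 1.11e-05) and MYOCD (-0.78, adjusted p = 0.0082). TBX5 and ISL1 did not differ from WT past 5% FDR there. Of the 20 factors, 6 were lower and 3 higher than WT in ZEB2 shRNA cells, where 5.33% and 5.67% of all genes were.

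TBX20, HAND2, MEF2C and TBX2 were also called lower, with log2 fold changes of -4.32, -4.10, -3.40 and -3.25. MEF2C was at 25.5 and 24.3 CPM, 285 and 241 CPM and, in WT cells, 1099 and 788 CPM, so that it fell in both lines from WT (adjusted p = 4.91e-09 and 7.52e-05). The GATA factors did not share this direction. GATA4 was at 181 and 174 CPM against 146 and 140.0 CPM (log2 fold change 0.31, SE 0.12, adjusted p = 0.0584), GATA5 had a log2 fold change of 0.01 (SE 0.13, adjusted p = 0.974), and GATA6 was higher at 133 and 139 CPM against 90 and 98.4 CPM (log2 fold change 0.53, SE 0.11, adjusted p = 0.00136). TBX3, a T-box repressor active in the conduction system, was higher at 349 and 331 CPM against 161 and 166 CPM (log2 fold change 1.06, SE 0.17, adjusted p = 3.54e-04). HOPX, a homeodomain-only cofactor, was at 4.48 and 3.4 CPM against 0.554 and 0.735 CPM (log2 fold change 2.68, SE 0.33, adjusted p = 3.75e-05), and here the ZEB2 shRNA libraries lay below WT, at 2.49 and 2.42 CPM (adjusted p = 0.00208).

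Sarcomere genes differed most. Of 26 genes of the sarcomere and myofibril, 21 were lower, 1 higher, 1 not past 5% FDR and 3 (MYL2, NRAP and MYPN) not tested for want of counts. Of these 18 were called lower, and the median log2 fold change was -5.66, or -4.86 with genes at the detection limit set to their bound. TNNT2 (cardiac troponin T, chr1:201328136-201346892) was at 1.7 and 2.7 CPM against 395 and 375 CPM and 1399 and 1122 CPM in WT cells (log2 fold change -7.40, SE 0.21, adjusted p = 5.35e-10). MYBPC3 (cardiac myosin binding protein C) was at 0.108 and 0.195 CPM against 137 and 103 CPM (log2 fold change -9.49, SE 0.26, adjusted p = 4.99e-10). TNNI1, the slow skeletal troponin I of the fetal heart, was at 0.939 and 1.04 CPM against 663 and 709 CPM (log2 fold change -9.42, SE 0.56, adjusted p = 7.16e-08). NEBL (nebulette, a Z-disc protein) was at 23.4 and 24.4 CPM against 1536 and 1488 CPM (log2 fold change -5.98, SE 0.17, adjusted p = 5.35e-10). In all of these the order was NKX2-5 shRNA, ZEB2 shRNA, WT from low to high, with no overlap. MYH7 (beta myosin heavy chain), at 0.289 and 0.371 CPM against 199 and 166 CPM, shares near-identical sequence with MYH6, and how the counting split reads between the pair is not known.

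The atrial light chain MYL7 was at 31.6 and 40 CPM against 1833 and 1786 CPM (log2 fold change -5.66, SE 0.21, adjusted p = 1.80e-09), and XIRP1 (an actin-binding protein of the intercalated disc) at 1.01 and 1.37 CPM against 67.9 and 56.5 CPM (log2 fold change -5.67, SE 0.29, adjusted p = 2.47e-08). ACTC1 (cardiac actin), at 133 and 164 CPM against 1186 and 1163 CPM, and TPM1 (tropomyosin), at 594 and 620.2 CPM against 2478 and 2489.9 CPM, were lower by less than 8-fold (log2 fold changes -2.98 and -2.03). TTN (titin, the molecular spring of the sarcomere) kept 7292 and 7089.9 CPM in NKX2-5 shRNA cells against 11546 and 11087 CPM in ZEB2 shRNA cells and 29613 and 24186 CPM in WT cells (log2 fold change -0.65, SE 0.12, adjusted p = 6.01e-04). TTN overlaps the antisense transcript TTN-AS1, which stood at 14.8 and 13.5 CPM against 11.5 and 13.6 CPM. Whether the counting used strand is not stated. ACTA1 (skeletal actin) was the member that was higher, at 17 and 29.2 CPM against 12.1 and 13.8 CPM (log2 fold change 0.86, SE 0.23, adjusted p = 0.00974). Without NKX2-5 shRNA replicate 2 its log2 fold change was 0.40 (adjusted p = 0.185), and without ZEB2 shRNA replicate 1 it was 0.75 (adjusted p = 0.107). Against WT, 22 of the 23 tested genes were lower in NKX2-5 shRNA cells and 21 of 23 in ZEB2 shRNA cells, where 24.7% and 5.33% of all genes were lower at 5% FDR. The medians were -6.53 and -1.26, both below WT.

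The bases upstream of 3 of these genes are given for reference, since NKX2-5 and ZEB2 act at such sequences. Each is the 250 bases before the annotated start, on the strand of the gene, from RefSeq on GRCh38.p14: chr7:44141333-44141582 for MYL7, chr1:201377681-201377930 for TNNT2 and chr3:39192596-39192845 for XIRP1, all on the minus strand. Capitals mark matches on either strand to TNAAGTG (the core that NKX2-5 binds), CACCTG (an E-box that ZEB factors bind) or the CArG box of SRF, none of which overlap each other here. The 3 were picked because they hold a match.
MYL7: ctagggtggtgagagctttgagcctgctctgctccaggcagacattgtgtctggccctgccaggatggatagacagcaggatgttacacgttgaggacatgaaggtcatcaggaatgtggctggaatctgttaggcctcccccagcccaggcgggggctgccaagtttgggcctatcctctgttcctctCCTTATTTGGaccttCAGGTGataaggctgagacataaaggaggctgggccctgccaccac
TNNT2: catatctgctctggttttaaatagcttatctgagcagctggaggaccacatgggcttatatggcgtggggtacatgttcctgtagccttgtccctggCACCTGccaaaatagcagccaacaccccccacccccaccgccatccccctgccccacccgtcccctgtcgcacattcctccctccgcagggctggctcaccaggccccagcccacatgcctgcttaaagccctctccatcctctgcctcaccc
XIRP1: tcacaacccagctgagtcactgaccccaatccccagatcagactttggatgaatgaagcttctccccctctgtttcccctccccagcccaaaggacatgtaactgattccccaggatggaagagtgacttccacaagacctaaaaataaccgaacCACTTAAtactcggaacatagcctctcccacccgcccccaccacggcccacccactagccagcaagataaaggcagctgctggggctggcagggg
Of the 18 sarcomere genes called lower, 10 had a single start in the RefSeq promoter table, and 2 of these held TNAAGTG, 3 CACCTG and 2 a CArG box. Among the 9004 tested genes with a single start, TNAAGTG was found in 5.95%, CACCTG in 16.1% and the CArG box in 0.966%. TNAAGTG was found in 24 of 318 (7.55%) genes called lower and in 12 of 109 (11%) called higher, and CACCTG in 44 (13.8%) and 18 (16.5%). Among all 22114 promoters with a single start the shares were 9.01% and 17.6%. These are counts of letters in a short window and were not tested.

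Calcium handling and excitation genes were mostly lower as well. Of 23 tested, 16 were lower, 4 higher and 3 not past 5% FDR, with 13 called lower and a median of -3.25. RYR2, the calcium release channel of the sarcoplasmic reticulum, was at 4.12 and 3.99 CPM against 276 and 215 CPM (log2 fold change -5.93, SE 0.23, adjusted p = 3.23e-09). PLN (phospholamban, which restrains the calcium pump) was at 0.253 and 0.586 CPM against 22.4 and 19.4 CPM and 115 and 117 CPM in WT cells (log2 fold change -5.50, SE 0.24, adjusted p = 7.36e-09). SLC8A1, the sodium-calcium exchanger, was at 10.2 and 9.09 CPM against 245 and 225 CPM (log2 fold change -4.61, SE 0.15, adjusted p = 7.46e-10). The lines did not overlap in any of these. HRC, a calcium-binding protein of the reticulum, KCNJ5, an inward rectifier subunit, and CACNA1G, a T-type calcium channel, had log2 fold changes of -7.62, -5.53 and -4.78. CACNA1G was above WT in ZEB2 shRNA cells, at 3.97 and 4.63 CPM against 0.557 and 0.659 CPM (adjusted p = 3.06e-04). The pacemaker channel HCN4 was called lower, with a log2 fold change of -3.53.

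ATP2A2, the calcium pump that many cell types share, was higher at 231 and 250 CPM against 199 and 183 CPM (log2 fold change 0.33, SE 0.11, adjusted p = 0.0247), but it did not pass 5% FDR when any 1 of the 4 libraries was left out (adjusted p from 0.0591 to 0.208). GJA1 (connexin 43, a gap junction protein of many tissues) was higher at 2664 and 2563 CPM against 739 and 896 CPM, with WT at 343 and 650.3 CPM (log2 fold change 1.68, SE 0.23, adjusted p = 8.65e-05). SLN (sarcolipin, a small regulator of the calcium pump) and KCND3 (a transient outward potassium channel) were also higher, each with low counts, at 1.52 and 0.997 CPM against 0.228 and 0 CPM and 2.2 and 2.09 CPM against 0.407 and 0.735 CPM (log2 fold changes 2.83 and 2.08). Without ZEB2 shRNA replicate 1 KCND3 did not pass (log2 fold change 1.54, adjusted p = 0.0729).

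Heart-secreted peptides and genes of muscle energy supply were lower in 12 of 14 tested genes, higher in 0 and not past 5% FDR in 2, and 1 of the 15 listed was not tested. Of these 6 were called lower, and the median was -2.59. PPARGC1A, the coactivator of mitochondrial biogenesis, was at 5.82 and 5.35 CPM against 151 and 135 CPM and 218 and 169.5 CPM in WT cells (log2 fold change -4.69, SE 0.17, adjusted p = 1.41e-09). ENO3 (muscle enolase) was at 10.1 and 9.52 CPM against 95.1 and 84.4 CPM (log2 fold change -3.20, SE 0.14, adjusted p = 9.20e-09). NPPA (atrial natriuretic peptide) was at 0.0722 and 0.0782 CPM against 2.02 and 2.35 CPM (log2 fold change -4.76, SE 0.63, adjusted p = 6.11e-05). NPPB (brain natriuretic peptide) did not differ in this way: the libraries overlapped, at 39.3 and 56.5 CPM against 49.3 and 47.4 CPM (log2 fold change -0.01, SE 0.19, adjusted p = 0.971). FABP3 (heart fatty acid binding protein) and CPT1B (muscle carnitine palmitoyltransferase) were lower, with log2 fold changes of -2.13 and -1.31. CPT1B was already lower at day 0 (-2.57) and day 2 (-2.40), both past 5% FDR. The log2 difference between the lines in CPT1B changed by 1.12 from day 2 to day 6 (adjusted p = 0.00323).

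**Figure D2:**
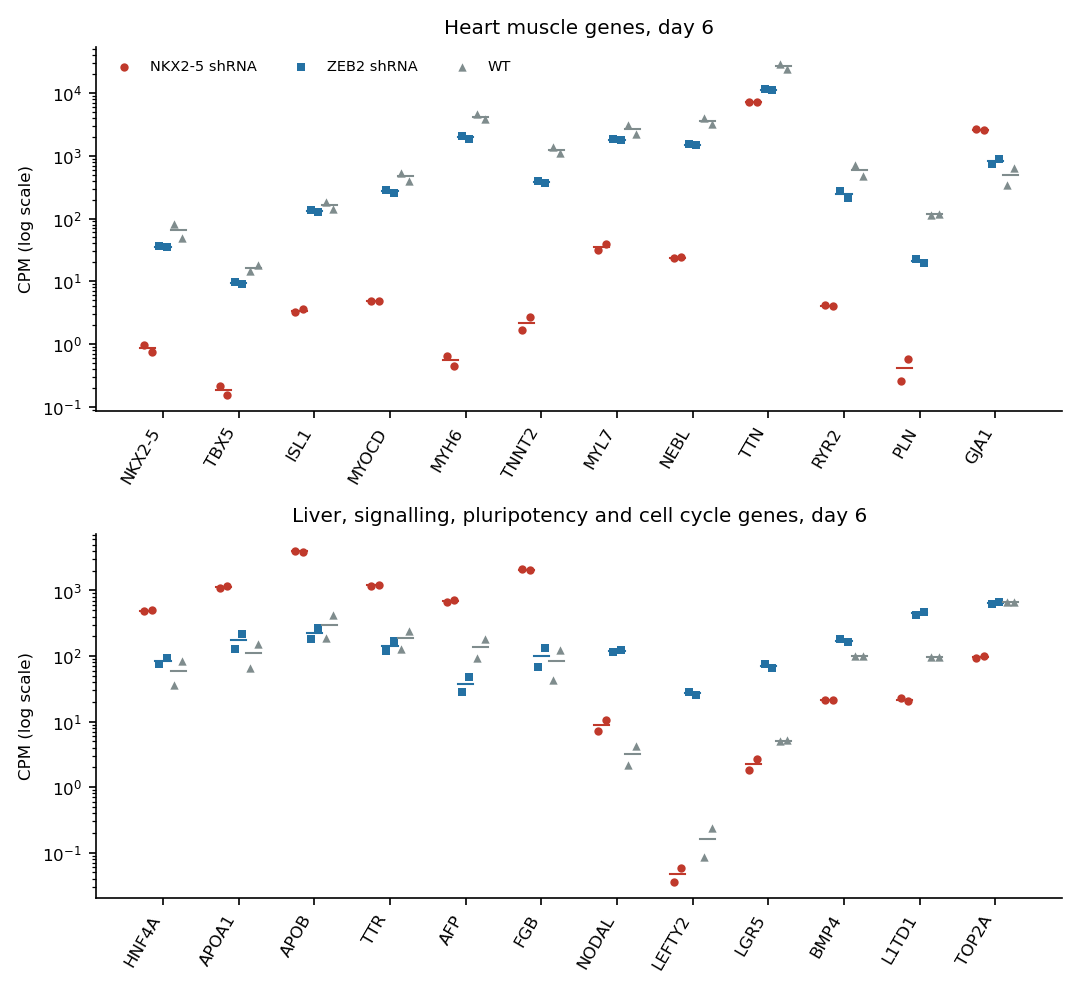
Each symbol is 1 library at day 6, with its level in CPM on a log scale on the y axis and genes along the x axis. Red circles are NKX2-5 shRNA, blue squares ZEB2 shRNA and grey triangles WT, with a short line at the mean of each pair. MYH6 runs from 0.65 and 0.449 CPM in NKX2-5 shRNA cells to 2101 and 1851 CPM in ZEB2 shRNA cells, while APOB is at 4058 and 3928 CPM in NKX2-5 shRNA cells and 181 and 264 CPM in ZEB2 shRNA cells.

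Secreted proteins of liver and yolk sac moved the other way. These are the lipoproteins, carriers and clotting proteins that fetal liver and yolk sac endoderm release. Of 20 listed, 16 were higher, 0 lower, 3 not past 5% FDR and 1 not tested. Of these 7 were called higher, where 1.07% of all genes were, and the median was 2.90. APOB, the structural protein of low-density lipoprotein (chr2:21224301-21266945), was at 4058 and 3928 CPM against 181 and 264 CPM and 187 and 415 CPM in WT cells (log2 fold change 4.17, SE 0.31, adjusted p = 4.28e-07). FGG (fibrinogen gamma chain) was at 53.1 and 45.6 CPM against 1.03 and 1.76 CPM (log2 fold change 5.31, SE 0.33, adjusted p = 8.94e-08). FGB (fibrinogen beta chain) was at 2111 and 2059.8 CPM against 68 and 133 CPM (log2 fold change 4.39, SE 0.43, adjusted p = 5.14e-06). Both ZEB2 shRNA libraries lay in or near the range of WT for these genes.

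AFP, the fetal counterpart of albumin (chr4:74296855-74321891), was at 677 and 725 CPM against 28 and 47.4 CPM (log2 fold change 4.24, SE 0.30, adjusted p = 3.16e-07). WT cells held 93.9 and 184 CPM of AFP, above both ZEB2 shRNA libraries (log2 fold change of ZEB2 shRNA from WT -1.91, adjusted p = 7.59e-04). TTR (transthyretin) was at 1187 and 1233 CPM against 119.9 and 168 CPM, RBP4 (retinol binding protein) at 100.2 and 97.5 CPM against 7.08 and 9.4 CPM and FGA (fibrinogen alpha chain) at 164 and 170.2 CPM against 11.2 and 15.4 CPM, and all 3 were called higher (log2 fold changes 3.08, 3.62 and 3.69). APOA1 and APOA2, proteins of high-density lipoprotein, were higher by less than 8-fold (log2 fold changes 2.71 and 2.96). ALB (albumin) was higher but at low levels, at 7.37 and 8.05 CPM against 0.928 and 1.25 CPM (log2 fold change 2.90, SE 0.45, adjusted p = 2.24e-04). Against WT, 17 of 19 tested genes were higher in NKX2-5 shRNA cells (24.4% of all genes were) and 0 of 19 in ZEB2 shRNA cells, where 2 were lower. The summed level of the 20 genes was 10934 and 10903 CPM in NKX2-5 shRNA cells, 779 and 1179.8 CPM in ZEB2 shRNA cells and 690.3 and 1511 CPM in WT cells.

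Endoderm transcription factors were higher in 7 of 13 genes, lower in 2 and not past 5% FDR in 4, with a median of 1.09. HNF4A, the nuclear receptor of hepatocytes and visceral endoderm, was at 479 and 508 CPM against 74.3 and 92.3 CPM and 36.2 and 83.9 CPM in WT cells (log2 fold change 2.57, SE 0.28, adjusted p = 1.26e-05). FOXA2, a pioneer factor of endoderm, was at 86.4 and 83.3 CPM against 23.2 and 22.6 CPM (log2 fold change 1.89, SE 0.29, adjusted p = 2.07e-04). SOX17, which specifies endoderm, was at 30.6 and 37.2 CPM against 12.3 and 19.2 CPM, and here WT was lowest, at 5.4 and 7.41 CPM (log2 fold change 1.14, SE 0.22, adjusted p = 0.00125). ONECUT1, FOXA1 and FOXA3 were higher with log2 fold changes of 1.89, 1.09 and 0.88. The 2 that were lower are both homeobox factors. PROX1 was at 4.62 and 4.85 CPM against 50 and 43.9 CPM (log2 fold change -3.31, SE 0.18, adjusted p = 4.02e-08). HHEX was at 8.05 and 7.6 CPM against 53.9 and 56.3 CPM (log2 fold change -2.82, SE 0.18, adjusted p = 9.76e-08). CEBPA, GATA3 and SOX7 had log2 fold changes between -0.61 and 0.31 and did not pass.

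Several NODAL signalling genes were lower in NKX2-5 shRNA cells, and for NODAL, LEFTY1, LEFTY2, GDF3, CRIPTO and CER1 the ZEB2 shRNA cells lay above WT at 5% FDR. NODAL is a secreted factor that maintains pluripotency and induces mesendoderm, CRIPTO is its coreceptor, and LEFTY1, LEFTY2 and CER1 are secreted inhibitors that the pathway itself induces. Of 15 listed, 9 were lower, 4 higher, 1 not past 5% FDR and 1 not tested, with 4 called lower and a median of -0.79. NODAL (chr10:72191692-72207707) was at 7.19 and 10.5 CPM against 115 and 125.3 CPM, with only 2.14 and 4.24 CPM in WT cells (log2 fold change -3.75, SE 0.27, adjusted p = 2.95e-07). LEFTY2 (chr1:226124298-226129083) had at most 3 counts in either NKX2-5 shRNA library against 28 and 25.6 CPM, at least 321-fold lower, and was at 0.0857 and 0.235 CPM in WT cells. LEFTY1 was at 0.217 and 0.274 CPM against 3.22 and 2.72 CPM (log2 fold change -3.56, SE 0.74, adjusted p = 0.00196), and GDF3, a related ligand, at 0.722 and 1.52 CPM against 13.7 and 12.3 CPM (log2 fold change -3.47, SE 0.34, adjusted p = 5.17e-06). ZEB2 shRNA libraries were the high ones in each case.

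Against WT, 8 of 14 NODAL pathway genes were higher and 0 lower in ZEB2 shRNA cells, where 5.67% of all genes were higher. NODAL, LEFTY2, CER1 and GDF3 had log2 fold changes from WT of 5.17, 7.2, 3.49 and 2.10 there. In NKX2-5 shRNA cells 7 of 14 were higher than in WT and 5 lower, where 24.4% and 24.7% of all genes were. NODAL and CER1 were among the higher ones (log2 fold changes 1.42 and 0.92, adjusted p = 0.0011 and 0.0414). PCSK6 (a convertase that processes NODAL) was higher at 20.1 and 22.9 CPM against 7.25 and 6.39 CPM (log2 fold change 1.64, SE 0.18, adjusted p = 1.23e-05) and SMAD3 (a transducer) had a log2 fold change of 1.05, while SMAD2 had one of -0.76, both past 5% FDR.

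BMP genes were mixed, with 9 of 19 lower, 6 higher and 4 not past 5% FDR and a median of -0.64. Among the ligands, BMP4 was at 21.3 and 21.5 CPM against 179 and 164 CPM (log2 fold change -3.00, SE 0.12, adjusted p = 3.55e-09), BMP5 at 60.9 and 58.5 CPM against 156 and 160.0 CPM (log2 fold change -1.40, SE 0.15, adjusted p = 1.00e-05), and BMP2 was slightly higher at 147 and 173 CPM against 119.5 and 118 CPM (log2 fold change 0.43, SE 0.12, adjusted p = 0.0113). BMP10, a ligand of the trabecular heart, was higher at 1.77 and 2.17 CPM against 0.423 and 0.441 CPM (log2 fold change 2.2, SE 0.42, adjusted p = 0.00113), with both lines below WT at 7.8 and 4.12 CPM. Of the extracellular modulators, BMPER was called lower at 32.5 and 32.9 CPM against 307 and 279.8 CPM (log2 fold change -3.16, SE 0.18, adjusted p = 4.81e-08), and the antagonists NOG and CHRD were higher (log2 fold changes 1.02 and 0.78). The antagonist FST overlapped between the lines, at 173 and 205 CPM against 175 and 203 CPM. The target genes ID1, ID3 and ID4 were lower and ID2 higher, all by less than 2-fold (log2 fold changes -0.94, -0.56, -0.66 and 0.46). Some of the small rises did not pass 5% FDR with 1 library left out. This held for ID2 with any of the 4 (adjusted p from 0.0543 to 0.0786), for BMP2 with any but NKX2-5 shRNA replicate 1 (0.0658 to 0.164) and for CHRD without replicate 1 of NKX2-5 shRNA or of ZEB2 shRNA (0.0922 and 0.13).

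WNT genes were lower in 8 of 20, higher in 3, not past 5% FDR in 5 and not tested in 4, with 4 called lower and a median of -0.87. LGR5, a receptor that enhances WNT signals and marks stem cells, was at 1.81 and 2.68 CPM against 75.7 and 65.1 CPM, with WT near the NKX2-5 shRNA cells at 4.97 and 5.2 CPM (log2 fold change -4.94, SE 0.24, adjusted p = 1.55e-08). LEF1, the nuclear effector, was at 4.98 and 6.12 CPM against 54.1 and 40.7 CPM (log2 fold change -3.09, SE 0.21, adjusted p = 1.77e-07). Of the ligands, WNT5A was at 6.14 and 6.29 CPM against 51 and 41.7 CPM and 159 and 116 CPM in WT cells (log2 fold change -2.90, SE 0.18, adjusted p = 8.50e-08), and WNT11 was higher at 82.8 and 82.6 CPM against 21.3 and 22.9 CPM (log2 fold change 1.91, SE 0.13, adjusted p = 2.82e-07). WNT2 had no counts in NKX2-5 shRNA cells and 0.57 and 0.294 CPM in ZEB2 shRNA cells, at least 5.17-fold lower. The feedback gene AXIN2, a general readout of the pathway, was at 21.3 and 18.1 CPM against 22.7 and 21.8 CPM (log2 fold change -0.18, SE 0.15, adjusted p = 0.37).

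**Figure D3:**
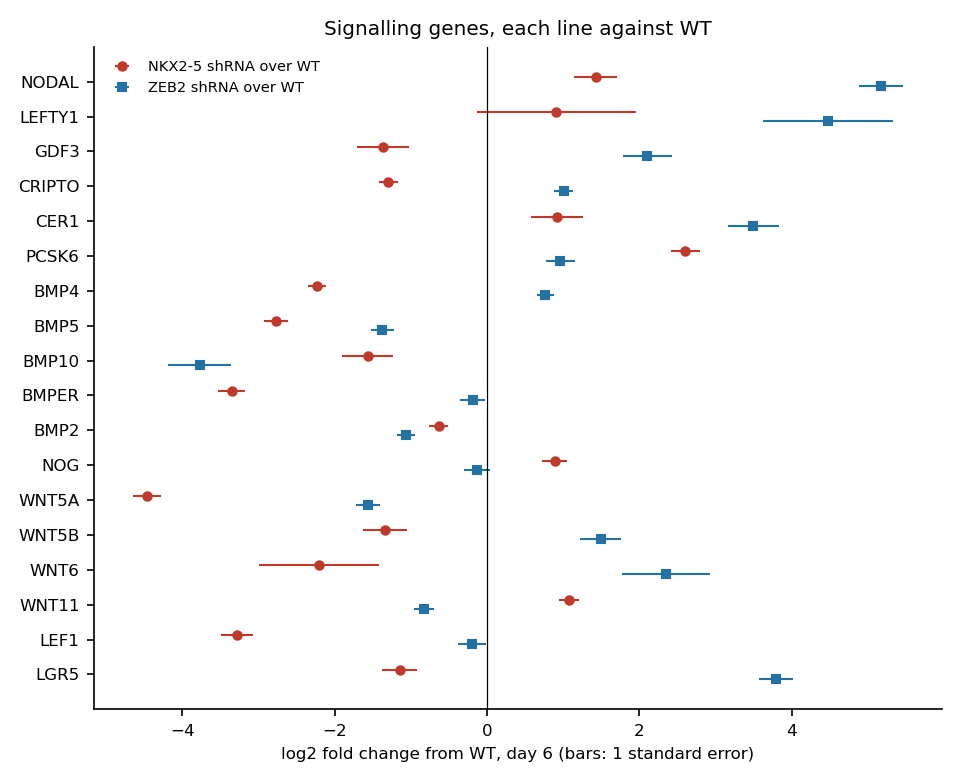
The x axis is the log2 fold change of each line from WT at day 6, with bars of 1 SE, and the y axis lists genes of the NODAL, BMP and WNT groups. Red circles are NKX2-5 shRNA and blue squares ZEB2 shRNA. NODAL, LEFTY1, CER1 and LGR5 lie far to the right of 0 in ZEB2 shRNA cells (5.17, 4.48, 3.49 and 3.79), and BMP4, BMPER and LEF1 far to the left in NKX2-5 shRNA cells (-2.23, -3.35 and -3.28).

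ZEB2 is known as a repressor of epithelial genes, so adhesion genes and keratins were listed. Of 19, 12 were higher in NKX2-5 shRNA cells, 5 lower and 2 not past 5% FDR, with a median of 0.81. CDH1 (E-cadherin), at 79 and 71.7 CPM against 69.4 and 58.8 CPM, did not differ past the threshold (log2 fold change 0.23, SE 0.16, adjusted p = 0.278), and both lines lay above WT, at 26.3 and 38.4 CPM (adjusted p = 6.38e-05 and 0.00189). EPCAM was at 333 and 352 CPM against 182 and 209 CPM (log2 fold change 0.81, SE 0.17, adjusted p = 0.00204). CRB3, a polarity protein, was at 42.3 and 45.8 CPM against 10.4 and 10.4 CPM (log2 fold change 2.08, SE 0.20, adjusted p = 3.50e-06), and the tight junction genes TJP3, CLDN3 and OCLN had log2 fold changes of 1.86, 1.79 and 1.77. Against WT, 14 of 19 were higher in NKX2-5 shRNA cells and 11 of 19 in ZEB2 shRNA cells, and 4 and 0 were lower. Over all genes 24.4% and 5.67% were higher and 24.7% and 5.33% lower.

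Keratins did not move as a block. KRT19 was higher at 1498 and 1584 CPM against 634 and 779 CPM (log2 fold change 1.13, SE 0.13, adjusted p = 2.11e-05), whereas KRT8, at 480.3 and 561 CPM against 988 and 1034 CPM, and KRT18, at 190.2 and 212 CPM against 529 and 559 CPM, were lower (log2 fold changes -0.96 and -1.43). KRT7 was the called gene of this list, at 3.83 and 3.79 CPM against 51.4 and 66 CPM and 7.97 and 11.6 CPM in WT cells (log2 fold change -3.94, SE 0.22, adjusted p = 3.84e-08). CDH3 (P-cadherin) was at 22 and 30 CPM against 153 and 152 CPM (log2 fold change -2.55, SE 0.16, adjusted p = 9.71e-08). Mesenchymal genes and regulators of the epithelial-mesenchymal transition were lower in 7 of 14, higher in 3, not past 5% FDR in 3 and not tested in 1, with a median of -0.83. ZEB1, the paralogue of ZEB2, was at 8.2 and 6.27 CPM against 33.7 and 28.8 CPM and 74 and 70.7 CPM in WT cells (log2 fold change -2.13, SE 0.19, adjusted p = 2.50e-06). VIM (vimentin) had a log2 fold change of -0.83 and CDH2 (N-cadherin, of heart muscle and also of early endoderm) one of 0.82, both past 5% FDR.

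Cell cycle genes were lower in 14 of 14, and 0 were called, since every difference was under 8-fold. The median was -2.15. TOP2A (topoisomerase of dividing cells, chr17:38544777-38574148) was at 94.1 and 99.8 CPM against 629 and 663 CPM and 659 and 657 CPM in WT cells (log2 fold change -2.74, SE 0.13, adjusted p = 1.09e-08). MKI67, a proliferation marker, was at 27.1 and 32.3 CPM against 132 and 131 CPM (log2 fold change -2.14, SE 0.14, adjusted p = 1.24e-07), and PCNA, the replication clamp, at 28.9 and 34.9 CPM against 139.6 and 144 CPM (log2 fold change -2.15, SE 0.15, adjusted p = 2.99e-07). The mitotic kinases AURKB, CDK1 and PLK1 had log2 fold changes of -2.69, -2.19 and -1.42, and MCM2, a subunit of the replicative helicase, had the smallest, -0.60. All 14 were also lower than WT in NKX2-5 shRNA cells, with a median of -1.88, and 0 of 14 differed from WT past 5% FDR in ZEB2 shRNA cells, with a median of 0.12. The summed level was 453 and 506 CPM in NKX2-5 shRNA cells, 1945 and 1993 CPM in ZEB2 shRNA cells and 1853 and 1819.5 CPM in WT cells. The part of this shift in the results of other lists was not tested.

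**Figure D4:**
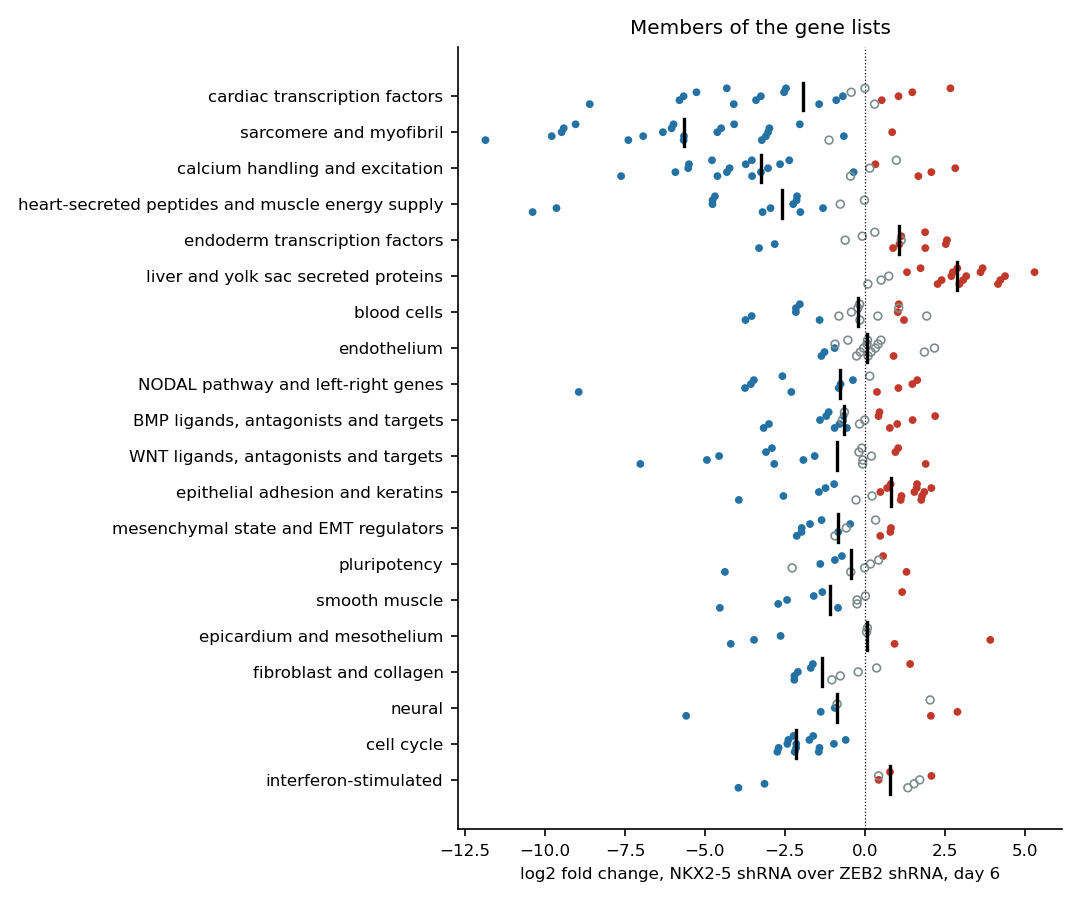
Each point is 1 tested gene of the list named on the y axis, with its log2 fold change of NKX2-5 shRNA over ZEB2 shRNA at day 6 on the x axis. Filled points pass 5% FDR, red if higher and blue if lower, open points do not, and black bars are medians. The sarcomere list has the lowest median (-5.66) and the liver and yolk sac list the highest (2.90).

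Pluripotency genes gave 4 lower, 2 higher, 5 not past 5% FDR and 1 not tested of 12. L1TD1, an RNA-binding protein of ESCs (chr1:62660521-62678000), was at 22.6 and 20.3 CPM against 419 and 471 CPM, with WT between them at 97.2 and 95.5 CPM (log2 fold change -4.38, SE 0.13, adjusted p = 7.46e-10). POU5F1 (OCT4) was low in both lines, at 3.21 and 4.06 CPM against 5.37 and 6.83 CPM (log2 fold change -0.71, SE 0.24, adjusted p = 0.0282), and did not pass without NKX2-5 shRNA replicate 1 or ZEB2 shRNA replicate 2 (adjusted p = 0.186 and 0.141). NANOG, at 0.47 and 0.449 CPM against 0.326 and 0.367 CPM, did not differ past the threshold (log2 fold change 0.43, SE 0.54, adjusted p = 0.547). ZFP42 (REX1, also a gene of extraembryonic endoderm) was higher at 168 and 175 CPM against 62.8 and 76.4 CPM (log2 fold change 1.31, SE 0.14, adjusted p = 9.42e-06), and LIN28A was at 1176 and 1163 CPM against 985 and 1083 CPM (log2 fold change 0.18, SE 0.10, adjusted p = 0.175).

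Markers of other lineages that these cultures could hold were read as well. Endothelial genes gave 3 lower, 1 higher and 14 not past 5% FDR of 18, with a median of 0.08. KDR (a VEGF receptor that also marks heart progenitors) was lower at 148 and 149 CPM against 385 and 375 CPM (log2 fold change -1.36, SE 0.13, adjusted p = 3.13e-06), while the defining markers PECAM1 (4.33 and 5.16 CPM against 4.04 and 5.22 CPM) and CDH5 (11.7 and 12 CPM against 9.35 and 9.48 CPM) did not pass. With 1 library left out, other than ZEB2 shRNA replicate 2, 2 of the endothelial genes passed in place of 4. The summed level of the 18 genes was 292 and 289.7 CPM in NKX2-5 shRNA cells, 549 and 531 CPM in ZEB2 shRNA cells and 563 and 678 CPM in WT cells. Most of the gap between the NKX2-5 and ZEB2 shRNA sums came from KDR.

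Blood genes gave 6 lower, 3 higher, 8 not past 5% FDR and 7 not tested of 24, with a median of -0.22. The defining factors GATA1 and SPI1 were at or near 0 in both lines. HBE1 (embryonic globin) was higher at 25 and 24.8 CPM against 10.8 and 10.4 CPM (log2 fold change 1.23, SE 0.28, adjusted p = 0.00331). It was already higher at day 0 (log2 fold change 3.30, adjusted p = 1.84e-04) and day 2 (2.63, adjusted p = 0.0141). The log2 difference between the lines in HBE1 changed by -1.38 from day 2 to day 6 (adjusted p = 0.00314). ALAS2, the heme synthesis enzyme of red cells, was called lower at 0.144 and 0.274 CPM against 2.33 and 3.01 CPM (log2 fold change -3.54, SE 0.51, adjusted p = 1.30e-04). The summed level of the 24 genes was 79.1 and 80.1 CPM in NKX2-5 shRNA cells and 101 and 94 CPM in ZEB2 shRNA cells.

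Smooth muscle genes gave 6 lower, 1 higher and 3 not past 5% FDR of 10 (median -1.08). ACTA2 (smooth muscle actin, also used in early heart muscle) was at 14.7 and 18 CPM against 107 and 108 CPM (log2 fold change -2.71, SE 0.20, adjusted p = 4.56e-07) and LMOD1 (leiomodin) at 0.506 and 0.899 CPM against 21.4 and 12.4 CPM (log2 fold change -4.53, SE 0.35, adjusted p = 5.35e-07). CALD1 (caldesmon) was higher at 965 and 950.1 CPM against 393 and 458 CPM (log2 fold change 1.17, SE 0.13, adjusted p = 1.02e-05). Fibroblast and collagen genes gave 5 lower, 1 higher and 4 not past 5% FDR of 10 (median -1.33), with COL1A1 at 35.4 and 41.3 CPM against 188 and 139 CPM (log2 fold change -2.09, SE 0.24, adjusted p = 1.77e-05). LUM (lumican) was lower at 39.3 and 42.8 CPM against 176 and 204 CPM (log2 fold change -2.20, SE 0.29, adjusted p = 5.96e-05), where ZEB2 shRNA cells were above WT (32.1 and 78.4 CPM, adjusted p = 0.00151).

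Neural genes gave 3 lower, 2 higher, 2 not past 5% FDR and 5 not tested of 12 (median -0.86), and the defining factors PAX6 and SOX1 were near 0 in both lines. TUBB3 (neuronal tubulin, also found in other cells) was higher at 78.7 and 95.1 CPM against 18.6 and 23.4 CPM (log2 fold change 2.07, SE 0.19, adjusted p = 3.11e-06). ELAVL4, a neuronal RNA-binding protein, was called lower at 0.0361 and 0.156 CPM against 5.9 and 5.07 CPM (log2 fold change -5.59, SE 0.56, adjusted p = 6.30e-06). Epicardial and mesothelial genes gave 3 lower, 2 higher, 2 not past 5% FDR and 2 not tested of 9, and their median of 0.06 changed sign with the processing, while the defining gene WT1 was at 0 and 0.0391 CPM in NKX2-5 shRNA cells and 0.782 and 0 CPM in ZEB2 shRNA cells. The difference in WT1 rests on ZEB2 shRNA replicate 1, without which the log2 fold change was 2.76. TBX18, a T-box factor of epicardium, was called higher at 0.506 and 0.41 CPM against 0.0326 and 0 CPM, at least 3.4-fold, and did not pass 5% FDR without ZEB2 shRNA replicate 1 (adjusted p = 0.0626). TCF21, a factor of epicardium and fibroblasts, was called lower at 0.325 and 0.528 CPM against 5.6 and 4.11 CPM (log2 fold change -3.46, SE 0.40, adjusted p = 1.83e-05). Interferon-stimulated genes, listed because shRNAs can raise them, gave 3 higher, 2 lower, 4 not past 5% FDR and 5 not tested of 14 (median 0.79). IFIT1 was called lower at 0.939 and 0.488 CPM against 11.1 and 9.48 CPM (log2 fold change -3.95, SE 0.26, adjusted p = 1.59e-07), with 53.2 and 49 CPM in WT cells.

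The same lines were then compared before and during early differentiation. At day 0, 79 of 16891 genes tested (0.468%) were called at 8-fold and 1% FDR, and at day 2, 37 of 16521 (0.224%), of which 11 (0.0666%) were lower, against 755 (4.59%) at day 6. A test of the difference between the lines at day 6 minus that at day 2 called 541 of 17278 genes (3.13%), 128 (0.741%) in the direction of NKX2-5 shRNA cells and 413 (2.39%) in that of ZEB2 shRNA cells. The same test against day 0, added after the data were seen, called 715 of 17750 (4.03%), 192 (1.08%) of them higher. Genes without counts in both lines at day 2, such as CSRP3 and XIRP1, cannot be called in the first of these, since their difference at day 2 is undefined.

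Cell cycle genes were not lower in NKX2-5 shRNA cells at day 2, when 5 of 14 were higher (11.5% of all genes were) and 2 lower. The change in the difference between the lines from day 2 to day 6 passed 5% FDR toward lower values in 12 of 14 (21.1% of all genes did). It passed toward higher values in 0. TOP2A was at 1375 and 1200.0 CPM against 1141 and 957 CPM at day 2 (log2 fold change 0.30, adjusted p = 0.0284), and this difference changed by -3.01 between the days (adjusted p = 5.72e-09). Among sarcomere genes the difference between the lines moved lower between these days in 15 of 23 and higher in 0. MYH6 was at 0.0547 and 0.44 CPM against 0.257 and 0.354 CPM at day 2. The difference between the lines in MYH6 changed by -11.01 to day 6 (adjusted p = 3.78e-06). ISL1 did not differ past the threshold at day 2, at 3.78 and 3.52 CPM against 4.23 and 3.16 CPM (adjusted p = 0.984), and its difference changed by -5.24 (adjusted p = 1.82e-09).

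Among liver genes the difference between the lines moved higher between days 2 and 6 in 8 of 19 (20.2% of all genes did) and lower in 0. APOB was at 0.912 and 0.881 CPM against 1.17 and 0.935 CPM at day 2, and its difference between the lines changed by 4.4 (adjusted p = 4.69e-07). SOX17 and GATA6 did not differ past the threshold at day 2, at 54.6 and 69.7 CPM against 51.3 and 66 CPM and 65.5 and 80.9 CPM against 61.2 and 78.4 CPM. FOXA2 was already higher at day 2, at 75.6 and 83.1 CPM against 36.8 and 39.7 CPM (log2 fold change 1.05, adjusted p = 1.40e-04), while FOXA1 and GATA3 were lower there (log2 fold changes -1.71 and -2.67, adjusted p = 0.0129 and 0.0212). At day 0 endoderm transcription factors were lower in NKX2-5 shRNA cells in 6 of 12 (16% of all genes were) and higher in 2. HNF4A was at 0.098 and 0.0343 CPM against 1.91 and 1.42 CPM there (log2 fold change -4.72, adjusted p = 2.40e-04) and SOX17 at 0 and 0.0343 CPM against 1.39 and 1.12 CPM (log2 fold change -5.83, adjusted p = 4.00e-04), the direction opposite to that at day 6. Of the NODAL pathway genes at day 2, 6 of 14 were higher and 4 lower in NKX2-5 shRNA cells, where 11.5% and 11.6% of all genes were. NODAL was at 252 and 285 CPM against 152 and 143 CPM at day 2 (log2 fold change 0.87, adjusted p = 4.66e-05), and this difference changed by -4.58 to day 6 (adjusted p = 1.51e-09). L1TD1 did not differ past the threshold at day 2, at 684 and 568 CPM against 695 and 561 CPM (adjusted p = 0.986), and its difference changed by -4.35 (adjusted p = 1.36e-09).

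**Figure D5:**
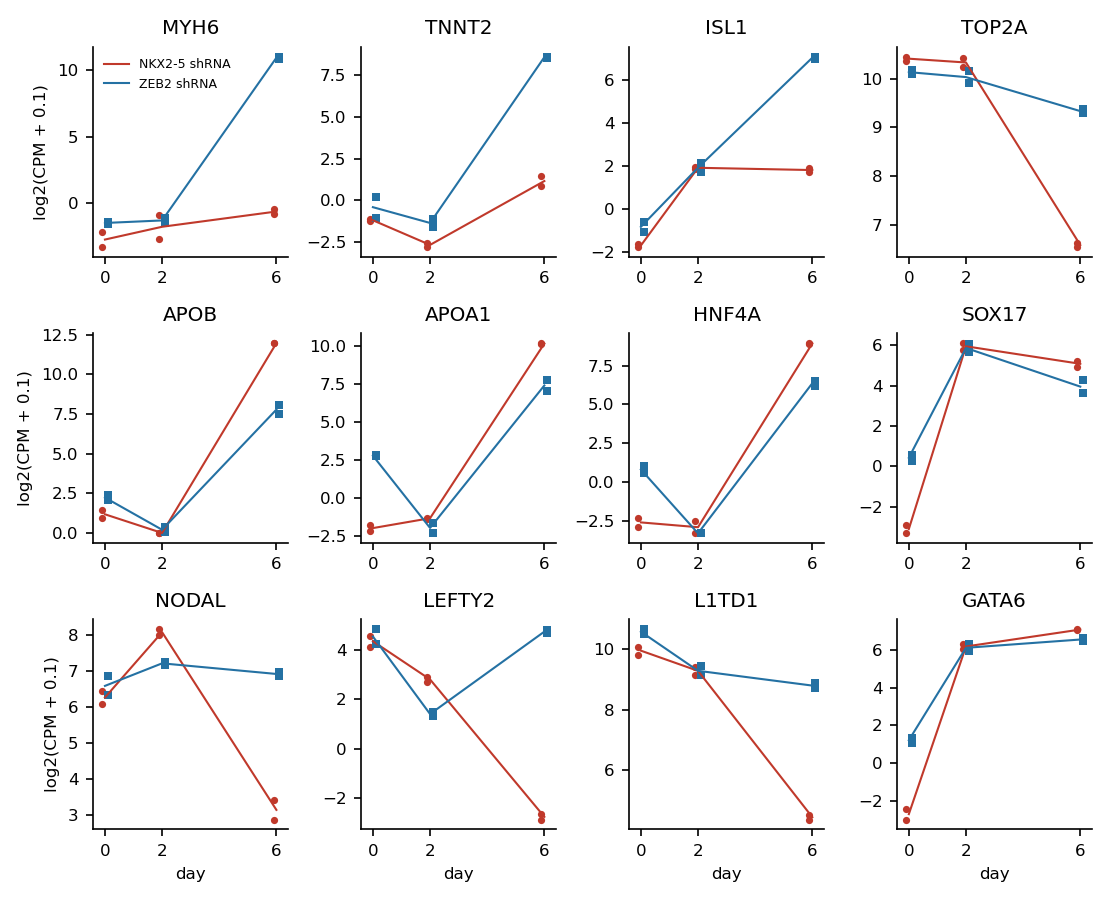
Each panel shows 1 gene, with the day of differentiation on the x axis and log2(CPM + 0.1) on the y axis. Points are libraries (red circles NKX2-5 shRNA, blue squares ZEB2 shRNA) and lines join the means, each day being scaled on its own libraries. At day 6 TOP2A, L1TD1, NODAL, MYH6 and TNNT2 are lower in NKX2-5 shRNA cells (log2 fold changes -2.74, -4.38, -3.75, -11.87 and -7.40), and SOX17, HNF4A, APOA1 and GATA6 are higher in ZEB2 shRNA cells at day 0.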

How the data were processed

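Total RNA libraries were sequenced by the authors, who aligned reads to hg19 (GRCh37) with TopHat2 2.0.14, Bowtie2 2.2.1.0 and SAMtools 0.1.19.0. The deposited values are whole-number counts of reads per RefSeq transcript accession, not normalized. Whether counting used strand is not given in the sources used here. Of 41627 accessions 40285 matched a gene name, giving 23189 symbols, and for the 7913 symbols with several rows the row with the largest total was kept. The 4 columns of day 10, with 42704 rows, could not be tied to the accessions and were not used.

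Counts were tested with edgeR 4.0.16 in R 4.3.3 (TMM scaling, filterByExpr, quasi-likelihood test), with all 8 libraries of day 6 in 1 fit and p-values adjusted by Benjamini-Hochberg over all genes tested. A call needed 8-fold and 1% FDR, and lists were read at 5% FDR. A gene with at most 3 counts in each library of 1 line was given a bound at 3 counts per library, which covers counting error only. Labels call the libraries biological replicates, and with 2 per group p-values measure only the spread between these samples. Depth was 13807473 to 61514547 counts per library at day 6. Alternatives were DESeq2 1.42.0, edgeR's exact test, other scalings, filters and thresholds, a replicate block and leaving out each library. The edgeR fit was tested on simulated data with known changes.

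The genes named were the targeted genes, the 10 largest rises and falls among called genes with a mean of at least 1 CPM in the higher line and no overlap, and, from each list, members with the largest changes in each direction or the highest levels, with further members where their role called for it. The members and lists were chosen with earlier results of these data known. Gene positions are from GENCODE on GRCh37 and upstream sequences from RefSeq on GRCh38.p14, used only for genes with a single annotated start. Most list members are given only within counts, and a few that this rule would name are not reported here.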

Additional observations from a re-analysis of the deposited data

Results flagged for a closer look

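For these genes the lines differed in opposite directions at day 6 and at an earlier day, each past 5% FDR, with at least 1 CPM in a line at the earlier day, and the test of the change itself passed 8-fold and 1% FDR. Values are the change in the log2 difference between NKX2-5 shRNA and ZEB2 shRNA cells. From day 0 to day 6 this difference rose by 5.70 for GATA6, 6.96 for SOX17 and 7.32 for HNF4A. For APOA1, APOA2 and APOB it rose by 8.18, 7.51 and 5.29. Mean GATA6 rose in both lines, from 0.0551 to 136 CPM in NKX2-5 shRNA cells and from 2.22 to 94.2 CPM in ZEB2 shRNA cells. Its difference was -5.17 at day 0 and 0.53 at day 6, and that of SOX17 was -5.83 and 1.14. The muscle genes MYOM1, TRDN and LMOD1 changed by -5.45, -6.90 and -6.35, the homeobox factor PROX1 by -3.94 and the interferon-stimulated gene IFIT1 by -4.95.

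From day 2 to day 6 the changes of the NODAL pathway genes NODAL, LEFTY1, LEFTY2, GDF3 and CER1 were -4.58, -5.56, -10.38, -3.94 and -3.37. LEFTY2 had at most 3 counts in each NKX2-5 shRNA library at day 6, so its value depends on the prior count. ACTC1 changed by -3.99, TRDN by -4.65, BMP4 by -3.47 and TOP2A by -3.01. How libraries were grouped for preparation is not stated. A preparation effect that differed between the lines on a given day cannot be told apart from the day itself. The causes were not tested.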

How the results depend on the processing

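The 755 calls at day 6 were 733 with a replicate block, which pairs same-numbered replicates. Whether same-numbered libraries share a batch is not known. Deviations of same-numbered NKX2-5 and ZEB2 shRNA libraries had a correlation of -0.1531, and other pairs of groups ran from -0.087 to 0.094. With 2 libraries per group these values cannot decide it. With the crossed pairing, chosen after seeing the data, there were 756 calls. Without the ZNF503 shRNA libraries, also tried after seeing the data, there were 753.

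Leaving out 1 library at a time gave 575 to 733 calls at day 6 (116 to 172 higher and 459 to 561 lower), and the lowest values were those without ZEB2 shRNA replicate 1, the deepest library. It gave 637 to 924 for NKX2-5 shRNA against WT (517 to 578 lower, and higher 120 without WT replicate 1 and 346 without WT replicate 2). For ZEB2 shRNA against WT it gave 49 to 77 (22 higher without ZEB2 shRNA replicate 1, up to 44, and 16 lower without ZEB2 shRNA replicate 2, up to 33). At day 0 it gave 52 to 77 (28 to 40 higher, 24 to 39 lower), with the lowest of each without ZEB2 shRNA replicate 2. At day 2 it gave 25 to 39 (18 to 26 higher, 6 to 13 lower), with 25 without NKX2-5 shRNA replicate 1 and 6 lower without ZEB2 shRNA replicate 2. For the change from day 2 to day 6 it gave 473 to 594 (108 to 129 higher, 360 to 482 lower).

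Other thresholds moved counts by construction. At 4-fold and 10% FDR there were 1706 (532 higher, 1174 lower) at day 6, 1875 (705, 1170) for NKX2-5 shRNA against WT, 329 (165, 164) for ZEB2 shRNA against WT, 288 (178, 110) at day 0, 188 (87, 101) at day 2 and 1700 (566, 1134) for the change from day 2. At 5% FDR with no fold threshold there were 7295 (3498, 3797), 8076 (4020, 4056), 1810 (933, 877), 5275 (2578, 2697), 3827 (1905, 1922) and 7139 (3491, 3648). At day 0 a filter of 1 CPM in 2 libraries gave 44 (22, 22), and DESeq2 gave 26 lower. At day 2 that filter gave 5 lower, DESeq2 24 with 4 lower, and edgeR's exact test 56 with 22 lower. Apart from thresholds and left-out libraries, no alternative moved a count of calls at day 6 by over 1.5 times.

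The epicardial median of 0.06 was -1.30 with the stricter filter, -0.18 with DESeq2, -0.017 with the exact test, -0.10 with the replicate block, and from -0.50 without NKX2-5 shRNA replicate 2 to 0.43 without ZEB2 shRNA replicate 1 (-0.14 without ZEB2 shRNA replicate 2). Other list medians kept their sign, and 19 of the values with 1 library left out and 4 under other settings moved by more than the spread between replicates. Among these the pluripotency median ran from -0.82 without NKX2-5 shRNA replicate 2 to -0.066 without ZEB2 shRNA replicate 1, the neural median was -0.34 without ZEB2 shRNA replicate 2, and with the stricter filter the WNT, fibroblast and interferon medians were -1.58, -1.67 and 0.42. The number of members past 5% FDR moved by over 1.5 times in 3 lists, to 2 of the endothelial genes without any 1 library but ZEB2 shRNA replicate 2, to 3 neural genes with DESeq2 or without NKX2-5 shRNA replicate 1, and to 3 epicardial genes with the stricter filter or without ZEB2 shRNA replicate 1. Of the named genes, ATP2A2, ID2, BMP2, ACTA1, CHRD, POU5F1, KCND3, WT1 and TBX18 did not pass 5% FDR in 21 values with 1 library left out, and WT1 also with DESeq2 (adjusted p = 0.0558). GATA4 and SRF passed in 7 values under other settings. The sign changed for genes near 0: GATA5 to -0.0056 with the stricter filter and to -0.055 and -0.098 without NKX2-5 shRNA replicate 2 or ZEB2 shRNA replicate 1 (at most 0.095), NPPB to 0.013 without scaling and to 0.23 and 0.017 without replicate 1 of either line (as low as -0.31), and PECAM1 to -0.074 and -0.13 without NKX2-5 shRNA replicate 2 or ZEB2 shRNA replicate 1. FST went to 0.025 without scaling, 0.010 without a filter, 0.00073 with only the lines compared, and 0.12 and 0.098 without NKX2-5 shRNA replicate 1 or ZEB2 shRNA replicate 2. WT1 ran from -6.97 without NKX2-5 shRNA replicate 2 to 2.76 without ZEB2 shRNA replicate 1. The causes were not tested. ZEB2 shRNA replicate 2, the shallowest library, limits what can be seen of genes with few counts.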

Other observations

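Histone genes, picked out after their values were seen, were lower in NKX2-5 shRNA cells than in ZEB2 shRNA cells in 65 of 65 tested genes of 68 at 5% FDR, and 45 were called lower (3.52% of all genes were). The log2 fold changes ran from -4.27 to -0.93 with a median of -3.26. H4C3, a core histone made in S phase, was at 46.1 and 79.9 CPM against 724 and 640.4 CPM (log2 fold change -3.43, SE 0.24, adjusted p = 2.95e-07), and the linker histone H1-5 at 65.5 and 76.3 CPM against 745 and 805 CPM (log2 fold change -3.45, SE 0.13, adjusted p = 2.77e-09). The lines did not overlap in either. Histones made outside S phase differed less, with log2 fold changes of -0.65 for H3-3A and -0.62 for H3-3B. The summed level of the histone genes was 2315 and 3204 CPM in NKX2-5 shRNA cells, 24789 and 22485 CPM in ZEB2 shRNA cells and 14948 and 10857 CPM in WT cells. At day 2 the median was 0.21, with 17 genes higher (11.5% of all genes were) and 0 lower. At day 0 it was 0.43, with 40 higher (15.3% of all genes were) and 0 lower. Against WT at day 6, ZEB2 shRNA cells were higher in 60 (5.67% of all genes were) and lower in 0, with a median of 0.80. NKX2-5 shRNA cells were lower than WT in 64 (24.7% of all genes were), with a median of -2.37. Histone genes are near-identical, 6 of those tested share identical counts with another gene, and their values are uncertain one by one.

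EOMES, a T-box factor of mesendoderm in no list above and also chosen after its values were seen, was at 3.76 and 5.8 CPM against 179 and 165 CPM (log2 fold change -5.14, SE 0.21, adjusted p = 4.33e-09). ZEB2 shRNA cells were the high ones, since WT cells held 10.8 and 10.9 CPM (log2 fold change of ZEB2 shRNA from WT 3.98, adjusted p = 5.10e-07). EOMES was already lower in NKX2-5 shRNA cells at day 0, at 0.416 and 0.652 CPM against 5.59 and 4.58 CPM (log2 fold change -3.22, adjusted p = 2.62e-05). At day 2 the difference was -0.17 (adjusted p = 0.288), and this difference changed by -4.94 from day 2 to day 6 (adjusted p = 1.01e-09).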
